A study of Rattus norvegicus with 23 samples.

Results

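The miRs of ZF4-SC kept with palmitate were compared with those of ZF4-SC kept with albumin alone, over the 195 of 792 miR entries that averaged 10 reads or more over the 3 libraries of this comparison. These libraries are 3 of 23 in the series, and each group has 1 library: palmitate at 0.5 mM, palmitate at 1 mM, and albumin as the control that the labels name. The same sequencing run held 5 more ZF4-SC libraries, cholesterol at 50 and at 100 mg/dl, cyclodextrin (2 libraries) and no addition, and these served as background. ZF4-SC are muscle-derived stem cells (MDSC) from the pelvic floor muscle levator ani of female Zucker fatty rats 12 weeks old, a strain with a defective leptin receptor that develops obesity, and every library compared here, albumin included, comes from cells of this strain. The cells had been selected as Sca1-, CD34+, CD45-, CD11b- and CD31-, and all treatments lasted 4 days. How many rats or cultures gave the RNA is not given in the sources used here, and no lean counterpart of these 3 libraries was used here.

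A miR is a short RNA that guides Argonaute to mRNAs and lowers their translation or stability. Most of the pairing is set by the seed, the bases 2 to 8 of the mature miR, so that miRs with a shared seed can reach many of the same targets. Each hairpin precursor yields a 5p and a 3p arm, which have different seeds. Palmitate is a long-chain saturated fatty acid. It is given to cultured cells bound to albumin, and in muscle cells excess palmitate is known for ceramide formation, endoplasmic reticulum stress and weaker insulin signalling.

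The sequences below are of mature miRs on which the comparison turns, taken from RefSeq on the rat build GRCr8, where 175 of the 195 members had an entry. Capitals mark the seed. The first set shows miRs that were higher with palmitate at 0.5 mM, next to relatives with the same seed where one was measured.
miR-222-3p: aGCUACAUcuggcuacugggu
miR-221-3p: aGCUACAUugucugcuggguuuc
miR-146a-5p: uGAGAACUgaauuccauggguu
miR-146b-5p: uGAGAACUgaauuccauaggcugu
miR-423-5p: uGAGGGGCagagagcgagacuuuu
miR-22-3p: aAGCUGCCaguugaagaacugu
miR-29a-3p: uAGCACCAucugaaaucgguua
miR-451-5p: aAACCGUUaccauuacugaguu
miR-144-3p: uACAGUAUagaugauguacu
miR-122-5p: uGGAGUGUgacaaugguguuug

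The next set shows miRs that were lower with palmitate at 0.5 mM, again with relatives of the same seed.
miR-148b-3p: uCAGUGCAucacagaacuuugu
miR-148a-3p: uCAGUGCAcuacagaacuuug
miR-152-3p: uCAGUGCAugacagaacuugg
miR-15b-5p: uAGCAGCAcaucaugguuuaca
miR-16-5p: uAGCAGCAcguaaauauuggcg
miR-145-5p: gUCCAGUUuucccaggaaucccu
miR-7a-5p: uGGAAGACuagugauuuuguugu
miR-342-3p: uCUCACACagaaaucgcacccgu
miR-17-5p: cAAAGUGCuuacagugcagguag
miR-20a-5p: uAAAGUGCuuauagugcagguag

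The libraries differed in depth. Palmitate at 0.5 mM had 827456 reads assigned to miRs, palmitate at 1 mM had 104902, and albumin had 4783062. In these 3 libraries palmitate and low depth go together and cannot be told apart. The other 5 libraries of the run had 803975 to 4770210 reads. Of these, the 2 cyclodextrin libraries, with 803975 and 4770210 reads, have nearly the same depths as 0.5 mM palmitate and albumin and were given the same agent. Their ratio, cyclodextrin 1 over cyclodextrin 2, is therefore printed beside the palmitate ratios as a measure of what changed between libraries with no change of the named agent. The labels give no dose of cyclodextrin, so the dose may differ within this pair. In total RNA of a culture, fewer cells of one kind and less of a miR per cell cannot be told apart.

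The labelled cell type was checked against its markers, and the listed miRs of striated muscle were at or near 0. Of 14 entries of striated muscle miRs 1 was a member, miR-206-3p, with 5 reads at 0.5 mM, 0 at 1 mM and 25 with albumin. The defining miR-1-3p, miR-133a-3p and miR-133b-3p were at 0 in all 8 libraries. The 14 epithelial and endocrine entries and the 11 pluripotency entries gave no member. In contrast, miR-143-3p of the smooth muscle cluster was the most abundant miR of both palmitate libraries.

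The top of the profile was much alike in the 3 libraries. The miR-143-3p, which acts in smooth muscle differentiation, held 25.6% of the reads at 0.5 mM, 23.3% at 1 mM and 21.8% with albumin. The miR-99b-5p held 18.1%, 11.6% and 22.1% in the same order. The miR-99a-5p, its relative of the miR-99/miR-100 family, which is known to restrain mTOR, held 13.8%, 16.4% and 16.2%. With miR-10a-5p, these miRs made up 69.9% of the reads at 0.5 mM and 67.5% at 1 mM, against 76.8% with albumin, and all stayed within 2-fold. Next in rank at 0.5 mM came miR-486, with 4.54% of the reads at 0.5 mM and 0.977% at 1 mM, against 0.0354% with albumin. This muscle and erythroid miR was at rank 5, 13 and 51 in the 3 libraries. Among the other abundant miRs, miR-125a-5p had 37364 RPM (reads in 1000000 miR reads) at 0.5 mM and 50523 at 1 mM, against 20056 with albumin, and miR-100-5p had 31366 and 39465 against 41028. The miR-191a-5p had 26563 and 22993 against 22042, and let-7f-5p had 13186 and 10486 against 14755. The miR-21-5p, a miR of growth and fibrosis, had 13085 and 12259 against 21614. At 0.5 mM, miR-486 was the only one of these 10 miRs that lay 2-fold or more away from albumin.

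With 1 library per group neither dose has a spread of its own, and the ratios of each dose are described without a test. They are given with exact 95% intervals, which cover counting error only, since reads carry no molecular identifiers. At 0.5 mM, 49 members were at least 2-fold higher than with albumin (25.1% of the 195) and 26 at least 2-fold lower (13.3%), while 120 lay between or had too few reads for a call. The interval excluded 1 for all 49 of the higher miRs and for 23 of the 26 lower ones. It lay beyond 2-fold for 34 and 13 of them. Most of these miRs were scarce: 31 of the 49 and 22 of the 26 had under 100 reads in the 0.5 mM library. At 1 mM, 63 members were at least 2-fold higher (32.3%) and 21 lower (10.8%), and here 45 members had 0 reads. Where at least 10 reads could be awaited at 1 mM at the albumin level, which holds for 78 members, 18 were 2-fold higher (23.1%) and 14 lower (17.9%). The cyclodextrin pair gave 38 higher (19.5%) and 39 lower (20%). The 2 palmitate comparisons share the albumin library, so neither is independent support for the other.

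The balance of the calls depended on the scaling. By library totals 65.3% of the calls at 0.5 mM were higher, by TMM factors 54.7% (41 higher and 34 lower) and by DESeq2 size factors 50.6% (40 and 39). At 1 mM the share was 75% by totals, 55.3% by TMM (47 and 38) and 50.6% by DESeq2 factors (44 and 43). Relative to totals, TMM moved all log2 ratios by -0.21 at 0.5 mM and -0.48 at 1 mM, and DESeq2 factors by -0.30 and -0.63. The miR-22-3p, miR-29a-3p, miR-128-3p, miR-185-5p, miR-186-5p and miR-126a-3p were no longer 2-fold higher at 0.5 mM with either set of factors, and miR-23b-3p, miR-27a-5p, miR-199a-5p and miR-3068-3p became 2-fold lower. The miR-21-5p became 2-fold lower with DESeq2 factors only. The ratios of single miRs given here use library totals. Against the library with no addition, 0.5 mM palmitate had 42 members at least 2-fold higher (21.5%) and 45 lower (23.1%).

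**Figure D1:**
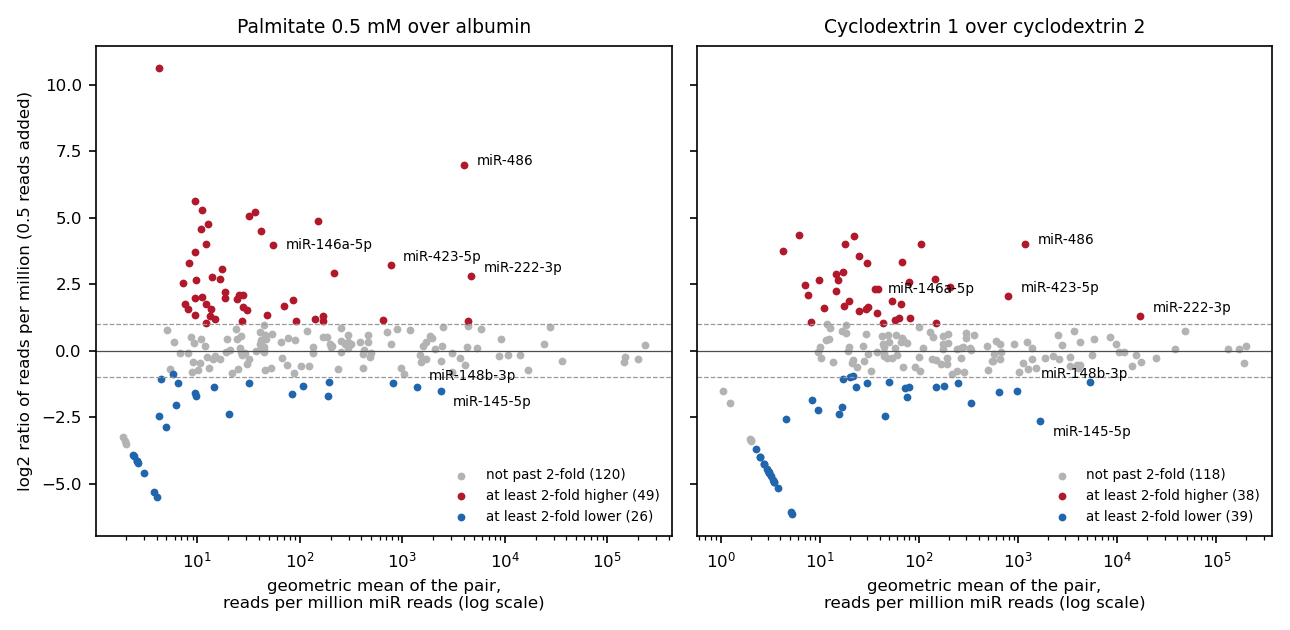
Each point is 1 of the 195 miRs, with the geometric mean of its RPM in the pair on the log x axis and the log2 ratio on the y axis, for 0.5 mM palmitate over albumin (left) and cyclodextrin 1 over cyclodextrin 2 (right). Red points are at least 2-fold higher (49 and 38), blue points at least 2-fold lower (26 and 39), and in the left panel 31 of the 49 higher and 22 of the 26 lower miRs had under 100 reads at 0.5 mM.

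Among the 110 miRs that averaged 100 reads or more over the 0.5 mM and albumin libraries, 17 were at least 2-fold higher, 9 lower and 84 between. The miR-222-3p, which acts with miR-221 on the cell cycle inhibitor p27, was the most abundant of the higher miRs after miR-486. It had 12407 RPM at 0.5 mM and 15672 at 1 mM, against 1788 with albumin. It was 6.94-fold higher at 0.5 mM (interval 6.74 to 7.14) and 8.77-fold at 1 mM (8.31 to 9.24). In the cyclodextrin pair its ratio was 2.48. In the other 5 libraries it had 1845 with no addition and 10850 to 27793 with cholesterol or cyclodextrin, so the albumin and untreated cells stood apart as the low ones and the palmitate values lay inside the range of the rest. The miR-221-3p, with the same seed and from the same X-linked cluster (chrX:6022642-6023268, plus strand, GRCr8), had 905.2 and 1153 RPM against 560.5, a ratio of 1.61 at 0.5 mM. For miR-222-5p, with 39 reads at 0.5 mM, the ratio was 3.89, and for miR-221-5p it was 0.932. Of the 4 miRs of the cluster, 2 were thus 2-fold higher, and both come from the miR-222 hairpin.

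The miR-423-5p and miR-320-3p were above the range of the other 6 libraries at both doses. The miR-423-5p had 2361 and 3537 RPM against 251.3 with albumin, 198.4 with no addition and at most 1629 in the others. It was 9.4-fold higher at 0.5 mM (8.74 to 10.1) and 14.1-fold at 1 mM (12.5 to 15.8). In the cyclodextrin pair miR-423-5p was 4.2-fold. Its other arm, miR-423-3p, was 1.27-fold at 0.5 mM. The miR-320-3p, which is made without Drosha and for which targets in insulin and lipid handling are known, had 587.3 and 819.8 against 77.36 with albumin and at most 335.9 in the other 5. It was 7.59-fold (6.62 to 8.72) and 10.6-fold (8.28 to 13.4) higher.

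Also above that range at both doses were the predicted miR entry p-miR-25-1__p-miR-25-2, with 818.2 and 2936 against 27.81 (29.4-fold, 24.4 to 35.7), and miR-484, with 124.5 and 257.4 against 39.31 (3.17-fold, 2.47 to 4.05). The miR-186-5p had 965.6 and 1096 against 430.5 and lay above the 500.3 to 854.5 of the other 5, and miR-151-3p had 6005 and 5529 against 3132. These miRs, with miR-500-3p and miR-122-5p, were the 8 members that exceeded all 6 other libraries of the run at both doses (4.1% of 195). Of these, miR-500-3p and miR-122-5p passed the filter on reads through the palmitate libraries. Whether 8 exceeds what any other pair of libraries of the run would give was not tested.

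Some relatives that share a seed gave unlike ratios. The miR-146a-5p, which NF-kB induces and which restrains IRAK1 and TRAF6, had 217.5 RPM at 0.5 mM and 247.9 at 1 mM, against 13.59 with albumin, 16-fold (12 to 21.6) and 18.2-fold (11.1 to 29.1) higher. Its relative miR-146b-5p, with the same seed and far more abundant, had 4465 and 6282 against 4044, a ratio of 1.1. In the cyclodextrin pair the ratios were 5 for miR-146a-5p and 0.683 for miR-146b-5p. Values of miR-146a-5p outside palmitate ran between 7.735 with no addition and 221.7 with cholesterol at 50 mg/dl. The miR-22-3p, a miR with targets in lipid metabolism and the muscle stress response, had 6495 and 22450 against 3006, which was 2.16-fold (2.09 to 2.23) and 7.47-fold (7.15 to 7.80). The untreated cells had 5164, so at 0.5 mM the ratio to no addition was 1.26. The miR-29a-3p, which targets collagens and parts of the insulin pathway, had 246.5 and 476.6 against 112.9 (2.18-fold, 1.85 to 2.57), but 206.8 with no addition, a ratio of 1.19. For miR-22-3p and miR-29a-3p it was the albumin library that was the lowest of the run. Their ratios in the cyclodextrin pair were 1.37 and 1.04.

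The miR-96-5p had 165.6 at 0.5 mM and 85.79 at 1 mM, against 44.11 with albumin, a ratio of 3.75 (3 to 4.68) and 1.94 (0.877 to 3.76). It lies with miR-182 and miR-183 in a single cluster on chr4:59752249-59756087 (minus strand, GRCr8), a sensory cell and FOXO-targeting cluster. The miR-182 had 1192 and 1106 against 675.5, and the cyclodextrin libraries had 10572 and 8966, far above. The 12 highest ratios also held miR-877 (76.14 and 152.5 against 30.11) and miR-351-3p (264.7 and 95.33 against 106.6). The miR-351-3p was 2.48-fold higher at 0.5 mM (2.11 to 2.91) and 0.894-fold at 1 mM (0.426 to 1.66). The doses thus gave unlike values for miR-351-3p, on 10 reads at 1 mM. For miR-96-5p, on 9 reads at 1 mM, the intervals of the 2 doses overlapped.

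**Figure D2:**
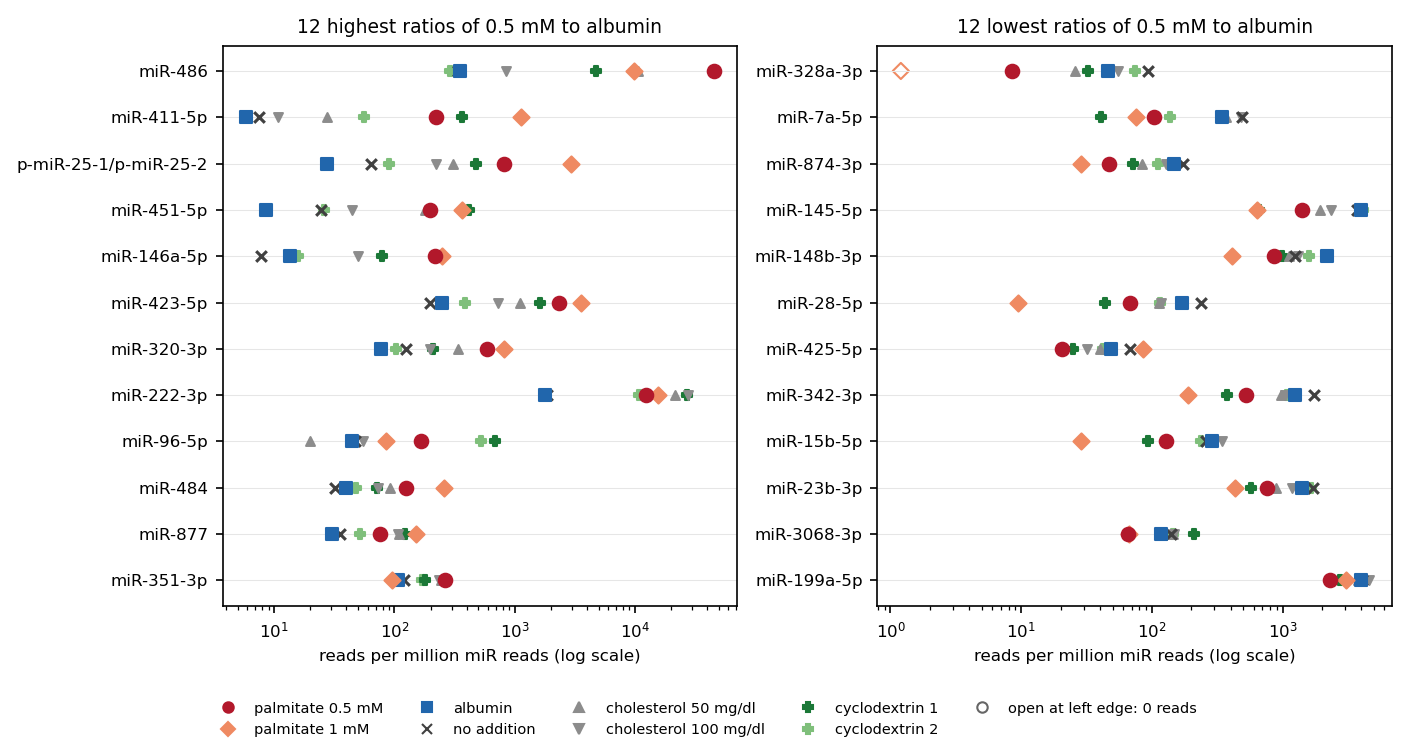
RPM (log axis) in each of the 8 ZF4-SC libraries of the run, for the 12 highest (left) and 12 lowest (right) ratios of 0.5 mM palmitate to albumin; each symbol is 1 library and an open symbol at the left edge is 0 reads. Values of miR-222-3p are 12407 and 15672 with palmitate, 1788 with albumin and 1845 with no addition, while cholesterol and cyclodextrin reach 27793.

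The miR-145-5p, a smooth muscle miR, was among the lowest. It had 1401 RPM at 0.5 mM and 638.7 at 1 mM, against 4005 with albumin and 3724 with no addition. The ratios were 0.350 (0.329 to 0.371) and 0.159 (0.124 to 0.203). Its other arm miR-145-3p had 5568 and 7474 against 5117, a ratio of 1.09, and the miR-143-3p of the same cluster was 1.18-fold at 0.5 mM. In cyclodextrin 1 miR-145-5p had 658 and in cyclodextrin 2 4140, a ratio of 0.159. The 3 shallowest libraries of the run, both palmitate libraries and cyclodextrin 1, thus had the 3 lowest values of miR-145-5p, and the part of depth in this was not tested.

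The miR-148b-3p had 864.1 at 0.5 mM and 409.9 at 1 mM, against 2201 with albumin, and was below the 992.6 to 1607 of the other 5 libraries at both doses. Its ratios were 0.393 (0.363 to 0.424) and 0.186 (0.135 to 0.251). For miR-148b-3p the albumin library was the highest of the run, and at 0.5 mM the ratio to no addition was 0.688. The cyclodextrin pair gave 0.618 for miR-148b-3p. The miR-148a-3p and miR-152-3p carry the same seed, and the first is a known regulator of the LDL receptor in liver. They had 2150 and 2841 against 2060, and 1325 and 2288 against 1762. Of the 3 miRs of this seed, 1 was thus lower at 0.5 mM and the others were within 2-fold. The miR-15b-5p, of the miR-15/miR-16 group that acts on BCL2 and insulin signalling, had 128.1 and 28.6 against 288.1 (0.445, 0.361 to 0.542), and miR-16-5p with the same seed had 250.2 and 467.1 against 259. In the cyclodextrin pair miR-15b-5p was 0.391-fold and miR-16-5p 1.07-fold.

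The miR-7a-5p, a miR that targets EGFR and IRS proteins, had 103.9 and 76.26 against 342.9 (0.303, 0.241 to 0.377), and miR-342-3p had 526.9 and 190.7 against 1237 (0.426, 0.385 to 0.469). The miR-874-3p had 47.13 and 28.6 against 148.6, and miR-328a-3p had 8.46 and 0 against 46.41. The miR-874-3p was under all 6 other libraries at both doses, and miR-328a-3p at 0.5 mM, since 0 reads at 1 mM allow up to 28.6 RPM and the lowest of the others was 25.62. In contrast, miR-7a-5p had a lower value, 41.05, in cyclodextrin 1. The miR-28-5p had 67.68 and 9.533 against 171.2, and miR-425-5p had 20.54 and 85.79 against 48.92, so the 2 doses lay on opposite sides of albumin for miR-425-5p. The other lowest ratios belonged to miR-23b-3p (763.8 and 429 against 1401), miR-3068-3p (65.26 and 66.73 against 118.3) and miR-199a-5p (2303 and 3041 against 4004), each within 2-fold at 0.5 mM. Cyclodextrin 1 over cyclodextrin 2 gave 0.298 for miR-7a-5p, 0.344 for miR-342-3p, 0.376 for miR-28-5p and 0.352 for miR-23b-3p. It gave 0.642 for miR-874-3p, 0.585 for miR-425-5p, 0.671 for miR-199a-5p and 1.45 for miR-3068-3p. The miR-21-5p was 0.605-fold at 0.5 mM and 0.567-fold at 1 mM, and lay below all 6 other libraries at both doses.

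The limit of 2-fold had neighbours on both sides. The miR-15b-5p at 0.445 was the last inside 2-fold lower among miRs of mean 100 reads and miR-23b-3p at 0.545 was the first outside, with miR-22-3p at 2.16 and miR-674-3p at 1.94 on the other side. At the filter on low values, miR-29b-3p had a mean of 10 reads and miR-106b-5p a mean of 9.667. The mean ran from 10 to 20 reads for 37 members.

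**Figure D3:**
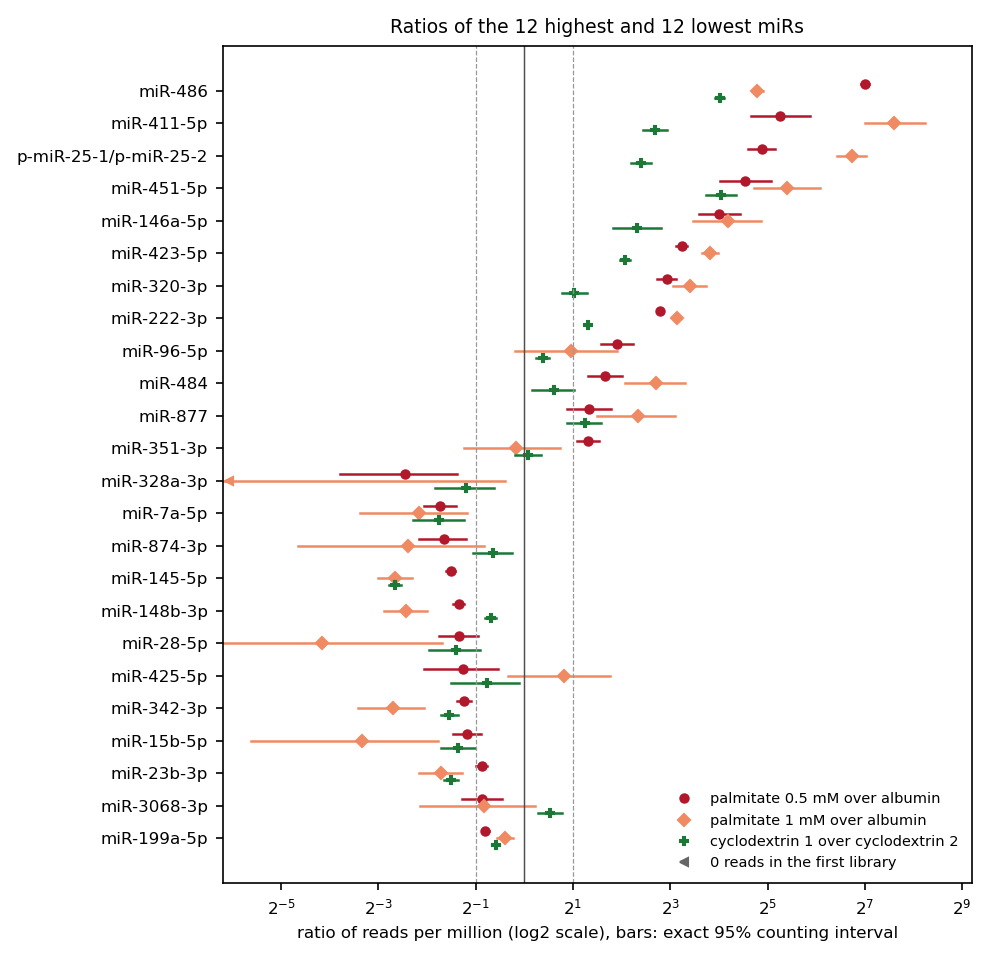
Ratios to albumin, on a log axis, of the 12 highest and 12 lowest miRs by the 0.5 mM ratio, at 0.5 mM and at 1 mM palmitate, with exact 95% intervals for counting error, and the ratio of cyclodextrin 1 to cyclodextrin 2 beside them. The miR-486 ratio is 128 at 0.5 mM and 27.6 at 1 mM, against 16.2 for the cyclodextrin pair; miR-145-5p is 0.350 and 0.159, against 0.159.

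Blood cell miRs had the highest median ratio of the lists with at least 3 members. This list has 11 entries and 4 members, and all 4 were at least 2-fold higher at 0.5 mM, with a median ratio of 25.6, against 1.13 over all members. At 1 mM the medians were 25.7 and 1.2. The miR-142-5p and miR-144-3p passed the filter on reads only through the 0.5 mM library, where they were high. Their calls at 0.5 mM, and their part in the median, were thus favoured by the filter. The muscle and erythroid miR-486 had 45396 RPM at 0.5 mM and 9771 at 1 mM, against 354 with albumin. It was 128-fold (122 to 135) and 27.6-fold (25.5 to 29.8) higher. The erythroid miR-451-5p had 198.2 and 362.2 against 8.572 (23.1-fold, 16.3 to 33.4), and its neighbour on chr10:63459446-63459606 (plus strand, GRCr8), miR-144-3p, had 43 reads at 0.5 mM and 5 at 1 mM, against 10 (24.9-fold, 12.3 to 55.5). The leukocyte miR-142-5p had 54 and 1 reads against 11. The list as a whole, nearly all of it miR-486 in these 3 libraries, made up 45722 RPM at 0.5 mM and 10190 at 1 mM, against 367.5 with albumin. In the others it was 377.2 with no addition, 10865 and 911.5 with cholesterol at 50 and at 100 mg/dl, and 5279 and 327.0 with cyclodextrin 1 and 2. All 4 members were also at least 2-fold higher in cyclodextrin 1 than in cyclodextrin 2. Outside the 4 members, miR-150-5p had 9 reads at 0.5 mM and 0 at 1 mM, against 3 with albumin, and the other 6 entries of the list, among them miR-223-3p and miR-142-3p, were at 0 in the 3 libraries. The cells had been selected as CD45- and CD11b- and were then grown in medium with fetal bovine serum. The liver miR-122-5p had 138, 8 and 0 reads, at least 266-fold higher at 0.5 mM against a floor of 3 reads. It too passed the filter on reads only through the 0.5 mM library. It had 38 and 29 reads in the cyclodextrin libraries, 85 and 19 with cholesterol and 2 with no addition. The part of depth, of RNA from blood or liver, or of RNA from the serum of the medium, in these values was not tested.

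**Figure D4:**
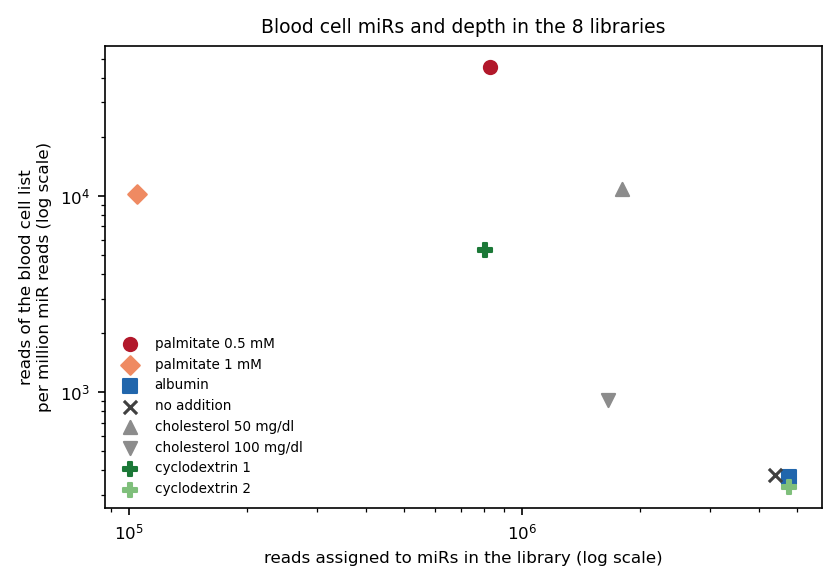
Summed RPM of the blood cell miRs (log y axis) against the depth of the 8 libraries (log x axis). The 2 palmitate libraries have 45722 and 10190, against 367.5 with albumin, and cyclodextrin 1 with 803975 reads has 5279 against 327.0 in cyclodextrin 2. Of these sums miR-486 alone has 45396 and 9771 with palmitate, 354 with albumin, and 4713 and 291.6 in the cyclodextrin libraries.

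Other members with few reads gave large ratios too. The miR-411-5p of the Dlk1-Dio3 cluster had 184 and 119 reads against 28 (38.0-fold, 25.4 to 58.7), and 4 of the 79 entries of this cluster were members, of which 3 were 2-fold higher. The miR-3473 had 155 and 69 against 26, miR-383-3p had 57 and 48 against 8, and miR-500-3p had 55 and 16 against 6. The miR-383-3p and miR-500-3p passed the filter on reads through the palmitate libraries. In the cyclodextrin pair miR-411-5p was 6.46-fold and miR-3473 10.1-fold, and miR-500-3p had 0 reads in cyclodextrin 1. The miR-215, a p53-induced miR with the seed of miR-192-5p, had 28 and 6 against 12 (13.5-fold), and miR-192-5p itself was 1.01-fold. The cyclodextrin pair gave 16.4 for miR-215 and 1.18 for miR-192-5p. The miR-215 passed the filter through the 0.5 mM library. Of the 11 members with 0 reads at 0.5 mM, miR-17-5p had 129 reads with albumin and was at least 7.44-fold lower, and miR-20a-5p had 114 and was at least 6.57-fold lower. These are proliferation miRs of one cluster and one seed, and both passed the filter on reads through the albumin library. Others did not share the fall: miR-92a-3p of the cluster was 1.13-fold and miR-93-5p of the seed 0.601-fold at 0.5 mM. In the cyclodextrin pair miR-17-5p was 7.36-fold and miR-20a-5p 0.182-fold. At 1 mM miR-17-5p had 1 read, a ratio of 0.353 (0.00888 to 2), and miR-20a-5p had 5, a ratio of 2 (0.637 to 4.8), so for miR-20a-5p the doses lay on opposite sides of albumin. The miR-598-3p was at least 4.04-fold lower. Others of the 11, such as miR-34a-5p with 30 albumin reads, had too few for a call.

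Most lists of function held members on both sides of 1. Over all 195 members 25.1% were 2-fold higher and 13.3% lower at 0.5 mM, and 32.3% and 10.8% at 1 mM, and the counts of the lists stand beside these shares. Of 12 miRs that the study ties to myostatin, the inhibitor of muscle growth, 2 were 2-fold higher at 0.5 mM (miR-132-3p and miR-29a-3p) and none lower, with a median of 1.02, by library totals. With TMM factors miR-29a-3p was no longer higher, miR-199a-5p was lower and the median was 0.887. With DESeq2 factors miR-21-5p was lower as well. Against no addition 0 of the list were 2-fold higher and 1 lower, with a median of 0.869. The study chose that list by earlier ratios of late to early diabetes MDSC from male rats. Whether those values come from libraries of this series is not given in the sources used here. Of 8 insulin signalling miRs 3 were higher and 1 lower (median 1.43, or 1.38 with miRs at 0 read as 3 reads), and the same list in the cyclodextrin pair gave 0 and 3. Of 7 lipid metabolism miRs 2 were higher, miR-122-5p and miR-185-5p, and miR-30c-2-3p was lower, on 2 reads against 59 with albumin. None of 7 adipogenesis miRs was past 2-fold at 0.5 mM (median 0.832), except miR-27a-5p with TMM or DESeq2 factors. Of 8 inflammation miRs 2 were higher and 1 lower (0.965), of 8 p53 and apoptosis miRs 2 and 0 (1.13), of 7 fibrosis miRs 1 and 1 (0.811), and of 2 hypoxia and endoplasmic reticulum stress miRs 0 and 1 (0.554). At 1 mM, beside the same albumin library, the higher and lower members numbered 4 and 0 of the myostatin-related list, 2 and 2 for insulin signalling, 2 and 1 for lipid metabolism, 0 and 2 for adipogenesis, 3 and 1 for inflammation, 3 and 0 for p53 and apoptosis, and 4 and 0 for fibrosis.

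In several large families no member passed 2-fold at 0.5 mM by library totals. All 9 members of let-7, 11 of miR-10/miR-99/miR-100/miR-125, 8 of miR-23/miR-27/miR-24, 4 of miR-181, 2 of miR-26 and 3 of miR-199a/miR-214 were within 2-fold, with medians of 1.19, 0.874, 0.756, 1.13, 1.14 and 0.811, though miR-23b-3p, miR-27a-5p and miR-199a-5p passed 2-fold lower with TMM or DESeq2 factors. Of 8 members of miR-30 1 was lower, of 9 of miR-322/miR-503 2 were higher, and of 7 of miR-17/miR-92 with miR-106b/miR-25 2 were lower. Both miR-29 members were above 1, with 1 past 2-fold. The miR-132/miR-212 hairpins gave 1 higher and 1 lower member, miR-132-3p at 2.89 and miR-212-3p, which shares its seed, at 0.385 (0.0446 to 1.52) on 2 reads. At 1 mM their ratios were 1.06 and 6.08, on 2 and 4 reads. Of the 4 members of miR-143/miR-145 only miR-145-5p was past the limit, and the 2 neuronal members, both of miR-128, were higher. Of the 2 endothelial members, miR-126a-3p was 2.14-fold at 0.5 mM and 0.512-fold at 1 mM. The miR-126a-5p had 0 reads at 0.5 mM and 6 at 1 mM, against 27 with albumin, which was 10.1-fold at 1 mM.

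**Figure D5:**
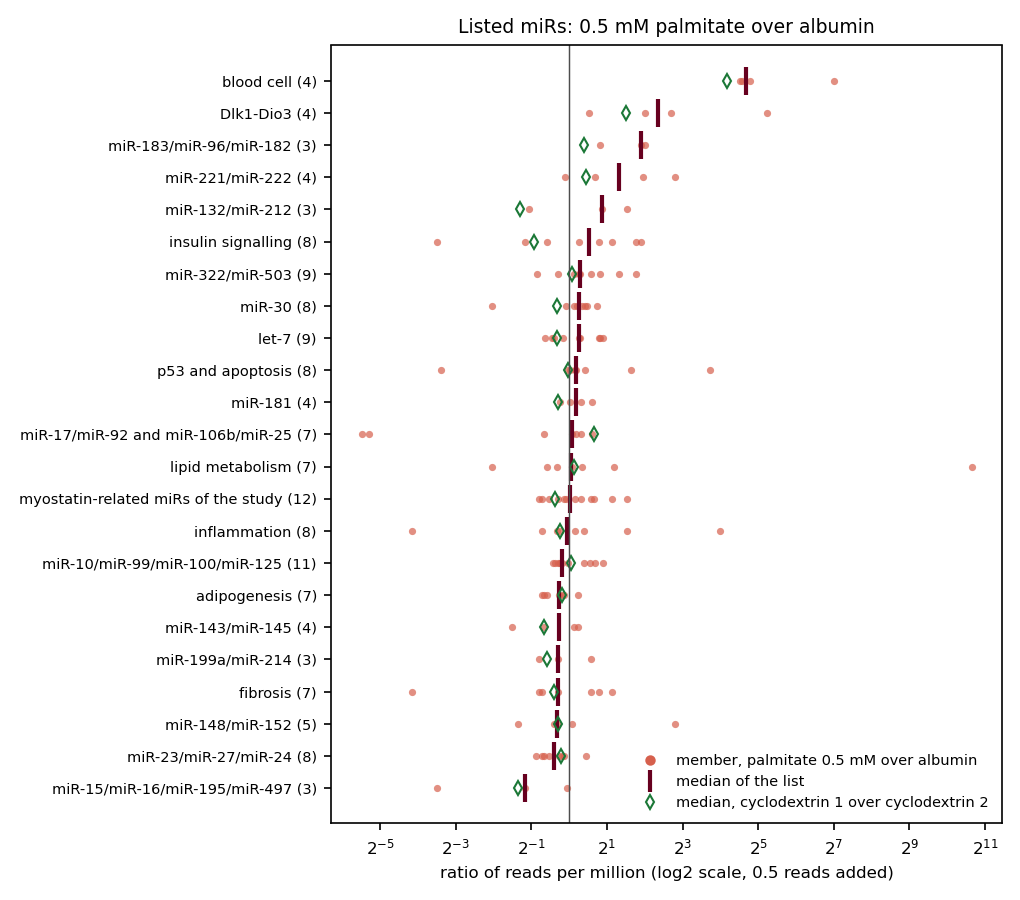
Ratio of 0.5 mM palmitate to albumin (log axis) of each member of the lists, 1 point per miR, with the list's median and the median of the cyclodextrin pair, and 0.5 reads added. The blood cell list has a median of 25.6, against 1.13 over all members, and all let-7 members lie within 2-fold by library totals.

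Seeds, arms and base composition were set beside the ratios. The 175 members with a sequence carried 142 seeds, and 54 of them fell into 21 groups that share a seed. In 11 of these the highest and lowest ratio were more than 2-fold apart, 0 had more than 1 higher member, and 1, that of miR-17-5p and miR-20a-5p, had more than 1 lower. Both of these miRs had 0 reads at 0.5 mM, and miR-93-5p of the same seed was within 2-fold. Of 35 hairpins with both arms measured, 15 had arms more than 2-fold apart. For miR-342 the 5p arm was 5.78-fold and the 3p arm 0.426-fold, and for miR-28 the 5p arm was 0.395-fold and the 3p arm 1.21-fold. The median length was 22 bases in each class, and the median GC content was 47.7% of the 44 higher miRs with a sequence, 50.0% of the 23 lower and 47.6% of the 108 between.

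The spread of the ratios was compared between pairs of libraries. The log2 ratios of the 110 more abundant members had an SD of 1.37 for 0.5 mM palmitate over albumin, against 1.18 for the cyclodextrin pair and 0.49 for no addition over albumin. Of the 49 miRs higher at 0.5 mM, 23 were also 2-fold higher in cyclodextrin 1 than 2, which is 46.9% of the 49 and 60.5% of the 38, and 8 were lower in it. Of the 26 lower miRs 15 were also lower in that pair (57.7% of the 26 and 38.5% of the 39). Across the 195 miRs Spearman's rho of the ratios was 0.437, and across the 110 it was 0.665; the 2 ratios share no library, though each sets a shallow library over a deep one.

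The test of palmitate against albumin was fitted in the 8 libraries. It took both doses of palmitate as 1 condition and both doses of cholesterol as 1 condition. The spread thus comes from the palmitate doses, the cholesterol doses and the cyclodextrin pair. In edgeR's quasi-likelihood test 0 of 195 members passed a Benjamini-Hochberg adjusted p of 0.05 (0%). At an unadjusted p under 0.05 there were 16 higher (8.21%) and 12 lower (6.15%), and DESeq2 called 16 (8.21%), 13 higher and 3 lower, with no adjusted p for 34. The smallest adjusted p in edgeR was 0.182, for miR-222-3p (log2 fold change 2.62), miR-320-3p (2.82), the predicted miR-25 entry (5.65) and miR-122-5p. For miR-411-5p (6.39) and miR-148b-3p (-2.06) it was 0.202, for miR-21-5p (-1.10) 0.228, for miR-874-3p (-2.17) 0.238, for miR-7a-5p (-2.19) 0.26 and for miR-328a-3p (-3.08) 0.292. Over the fits tried, the adjusted p of miR-222-3p ran from 4.97e-05 to 0.76 and that of miR-148b-3p from 1.52e-04 to 0.76. With each dose as its own condition, 0.5 mM against albumin gave 0 calls in edgeR, with a smallest adjusted p of 0.76 and 4 miRs at an unadjusted p under 0.05. With 1 mM left out there were 0 calls (0.394 and 24 miRs), and with 0.5 mM left out also 0 (0.0815 and 50 miRs). Leaving out either cyclodextrin library gave 19 calls (without the first) or 18 (without the second) in edgeR. In 5 of 15 fits there were calls, and 12 miRs were called in each of these 5, namely miR-122-5p, miR-146a-5p, miR-222-3p, miR-320-3p, miR-3473, miR-383-3p, miR-411-5p, miR-423-5p, miR-451-5p, miR-486 and the predicted miR-25 entry as higher and miR-148b-3p as lower. Of these 12, miR-122-5p and miR-383-3p passed the filter on reads through the palmitate libraries.

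Against the 6 other libraries with 1 mM left out, 23 members were above all at 0.5 mM (11.8%) and 41 below all (21%). Whether these shares exceed those of any other library of the run was not tested. Both doses lay below all 6 others for 22 members (11.3%). In 8 of these the lowest of the 6 was under the worth of 3 reads at 1 mM (28.6 RPM), so the place of the 1 mM library was not detectable at this depth. Among the other 14 were miR-99b-5p, miR-21-5p, miR-10b-5p, miR-26a-5p, let-7i-5p, miR-103-3p, miR-148b-3p and miR-874-3p.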

How the data were processed

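Reads were sequenced by Norgen Biotek and assigned to miRs of miRBase Release 18.0, and the values deposited by the authors are raw whole-number counts per miR, with no normalization. The labels name a Norgen kit for RNA extraction and the paper another, and how reads matching several miRs were treated is not given in the sources used here. Counts were divided by the library total and given as reads in 1000000 miR reads (RPM). Members averaged 10 reads or more over the 3 libraries, so a scarce miR could pass through the 1 library where it was high. Ratios carry exact 95% intervals (scipy 1.17.1), medians of lists add 0.5 reads, and a miR at 0 is set at a floor of 3 reads for bounds. Tests were fitted in edgeR 4.0.16 (quasi-likelihood, TMM) and DESeq2 1.42.0 (R 4.3.3, limma 3.58.1) over the 8 libraries of the run, after being tested on simulated data. The 2 cyclodextrin libraries may be technical repeats, and single libraries are assumed to vary like them and like the doses of palmitate and of cholesterol. Named miRs were the 10 most abundant at 0.5 mM, the 12 highest and 12 lowest ratios among miRs of mean 100 reads, the 5 smallest p in each direction and members of 32 lists written from general knowledge. The miRs and lists were chosen with earlier results of these data known. Some miRs of few reads were named after their values were seen, as were both arms of a hairpin and seed relatives.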

Additional observations from a re-analysis of the deposited data

How the results depend on the processing

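Members 2-fold higher at 0.5 mM, 49 by totals, numbered 14 where the 3 libraries averaged 100 reads or more, 93 with any reads and 30 against cyclodextrin 1, and the 26 lower numbered 7 and 78 in the same settings and 45 against no addition. At 1 mM the 63 higher numbered 26 with a mean of 100 reads, 195 with any reads and 18 where at least 10 reads were to be had at the albumin level, and the 21 lower numbered 38 with TMM, 43 with DESeq2 factors, 40 with any reads and 32 against no addition. The references of cyclodextrin 1 and of 10 reads at the albumin level were chosen after seeing the data. The 0 calls of edgeR became 16 in DESeq2, 20 with no filter, 17 with only the 3 libraries and 0 to 19 when 1 library was left out, the cause of which was not tested; the other fits gave 0. Of 121 named ratios at 0.5 mM, 13 lay on the other side of 1 with TMM, among them miR-145-3p (0.943), miR-146b-5p (0.957), miR-148a-3p (0.904) and miR-192-5p (0.872), and 24 against no addition, among them miR-143-3p (0.909), miR-221-3p (0.928), miR-221-5p (1.58) and miR-99a-5p (1.17). Limits are the 1 library per group, a spread taken from the doses of palmitate and of cholesterol and 1 cyclodextrin pair, and depth. The 1 mM library had 104902 reads, so 3 reads there stand for 28.6 RPM. No paired analysis was possible because the groups compared share fewer than 2 replicate numbers.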
